A study of Drosophila melanogaster with 4 samples.

Results

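The genes for the proteins of the mitochondrial ribosome were examined as a class in chromatin accessibility maps of the fly pupal wing. Members were all protein-coding genes of the RefSeq gene table of the dm6 assembly whose symbol starts with mRpL or mRpS, which gave 73 of the 13959 protein-coding genes on chromosome sequences that hold peaks. Of these, 47 carry the large-subunit letter and 26 the small-subunit letter. They are spread over 3R (21 genes), 3L (17), 2L (12), 2R (12) and X (11). A member was said to have a peak in a library when a peak summit lay within 500 bp of either end of the gene. The gene table has no strand, so the window covers the promoter end and the 3′ end alike.

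Mitochondria translate the few proteins encoded in their own DNA on a dedicated ribosome, whose RNAs come from the mitochondrial genome while all its proteins are encoded in the nucleus, made in the cytoplasm and imported. The proteins it makes are core subunits of the respiratory chain and ATP synthase, so oxidative phosphorylation depends on this gene class. Part of the proteins descend from bacterial ribosomal proteins and part were added in the mitochondrial lineage. Promoters of such broadly used genes are usually short and nucleosome-depleted.

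The libraries are FAIRE-seq, in which crosslinked chromatin is sheared and the DNA that is free of nucleosomes is recovered after phenol extraction and sequenced. Every animal, control included, was a Drosophila melanogaster female with 2 copies of osa-GFP, in which a GFP tag is fused to the ARID subunit of the Brahma chromatin remodeler, and carried UAS-Nslmb-vhhGFP, the deGrad transgene that sends GFP-tagged proteins to degradation. Osa-deGrad wings also carried nub-GAL4, a driver active in the wing primordium, and control wings had no driver, with 2 libraries per genotype and 40 wings per library. Animals grew up at 23 °C and were shifted to 29 °C as wandering larvae. Prepupae were collected at 0 to 12 h after puparium formation and their wings dissected 24 h on, at 24 to 36 h.

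There is no wild-type osa and no driver-only group among these samples, and cells of the dissected tissue outside the nub-GAL4 domain are not targeted. Loss of Osa protein cannot be read from peak lists. Whether the replicates are separate crosses is not stated in the labels, so p-values measure the spread between these libraries, which may be technical. The series' design text names an anti-GFP CUT&RUN experiment on larval discs, whereas every sample label describes FAIRE of pupal wings, and the labels were followed.

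The lists held 13959 and 17048 peaks in Osa-deGrad replicates 1 and 2 and 13953 and 18007 in control replicates 1 and 2, so both second replicates were longer. Read depth is unknown. Of the marker genes for the tissue, 7 of 7 wing epithelium genes (nub, vg, ap, rn, bs, Dll and sd) had a peak in all 4 lists, against 0 of 4 hemocyte genes, 0 of 3 fat body genes, 1 of 4 muscle genes, 2 of 4 neuron and glia genes and 2 of 3 tracheal genes. Hml, srp, NimC1 and He, the hemocyte genes, were without a peak in 3 lists, and 1 of them had a peak in control 2. A peak is an open site and not a level of transcription, so these counts do not measure cell numbers.

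Mitochondrial ribosomal protein genes had a peak more often than genes at large. A peak was found at 54 of 73 members in Osa-deGrad 1 (74.0%), 71 in Osa-deGrad 2 (97.3%), 53 in control 1 (72.6%) and 64 in control 2 (87.7%). Over all protein-coding genes the shares in the same order were 47.3%, 56.8%, 41.9% and 54.7%. In each list the member genes drew on as many separate peaks as there were members, so no peak was counted for 2 members. The higher share of members was seen in both genotypes, and the difference from all genes is a description without a test.

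The genotypes were not separated by the number of members with a peak. Osa-deGrad libraries held 62.5 ± 12.0 members and control libraries 58.5 ± 7.78 (SD, n = 2 each), a difference of 4 (exact permutation test over the 4 libraries, two-sided, p = 0.667). With 2 libraries per genotype this test cannot go below 0.333. The count followed the replicate number: both second replicates, the longer lists, held more members than both first replicates. In bulk tissue, fewer cells with an open site and a less open site per cell cannot be told apart, which holds for every comparison below.

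**Figure D1:**
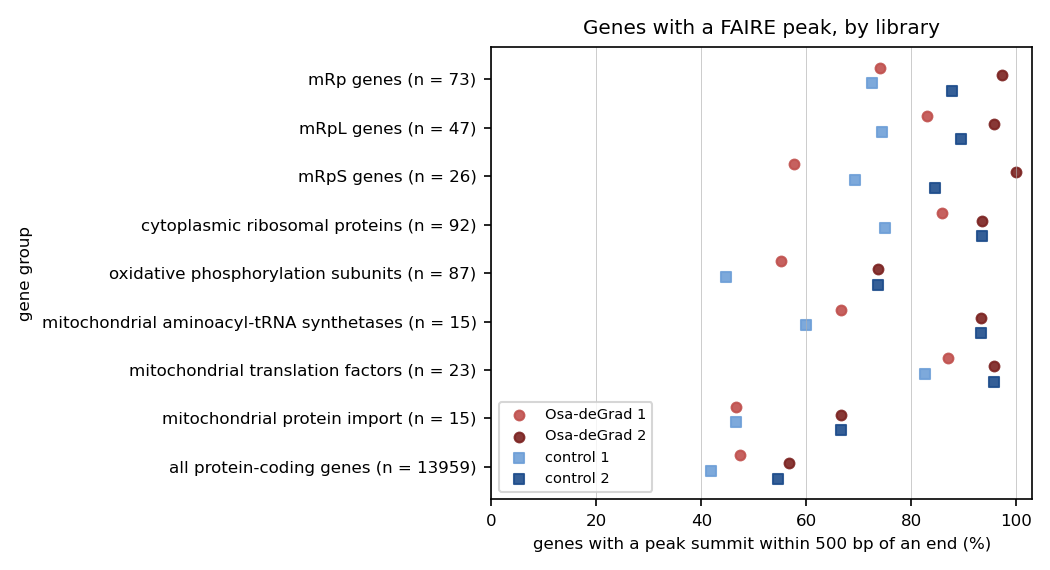
Share of genes (x axis, percent) with a peak summit within 500 bp of a gene end, by gene group (y axis); each point is 1 library, with circles for Osa-deGrad and squares for control. Mitochondrial ribosomal protein genes lie between 72.6% and 97.3%, all protein-coding genes between 41.9% and 56.8%, and the second replicate exceeds the first within each genotype in every group.

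The subunits differed most in Osa-deGrad 1. Large-subunit genes had a peak at 39, 45, 35 and 42 of 47 genes in Osa-deGrad 1, Osa-deGrad 2, control 1 and control 2, and small-subunit genes at 15, 26, 18 and 22 of 26. Every small-subunit gene thus had a peak in Osa-deGrad 2, while Osa-deGrad 1 held 57.7% of them against 83.0% of the large-subunit genes. Within Osa-deGrad the spread between replicates of the small-subunit share was wider than any gap between genotypes of the same replicate number. The letter in the symbol was taken at face value, although mammalian counterparts of mRpS18A and mRpS30 sit in the large subunit.

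Other genes of mitochondrial gene expression and respiration, grouped by symbol or by a written list, showed a range of shares. The 15 mitochondrial aminoacyl-tRNA synthetase genes, which charge tRNAs inside the organelle, had a peak in 66.7%, 93.3%, 60.0% and 93.3% of genes in Osa-deGrad 1, Osa-deGrad 2, control 1 and control 2. In the same order the 23 genes for mitochondrial translation factors and for expression and copying of mitochondrial DNA reached 87.0%, 95.7%, 82.6% and 95.7%. These groups, with the members, serve the organelle's translation or the expression and copying of its DNA, and all lay above all genes in each list.

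Subunits of oxidative phosphorylation (87 genes, a symbol-based group that includes paralogs whose symbols end in L) had a peak in 55.2%, 73.6%, 44.8% and 73.6%, again in that order. Genes of the Tim and Tom protein import complexes (15 genes) had one in 46.7%, 66.7%, 46.7% and 66.7%. Both groups lay below the members in every list. The 92 cytoplasmic ribosomal protein genes, which build the ribosome outside the organelle, had a peak in 85.9%, 93.5%, 75.0% and 93.5%, above the members in 3 lists and below them in Osa-deGrad 2.

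A core of the class was open in every library. A peak was present in all 4 lists at 43 members (58.9%), against 34.8% of all protein-coding genes. No peak was found in any list at 2 members (2.74%), against 38.7% of all genes. These are mRpL20 on 3L and mRpL47 on 3R, for proteins of the large subunit with bacterial relatives. The nearest summits in any list lay 1117 to 5446 bp from the ends of mRpL20 and 2127 to 8467 bp from those of mRpL47.

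The other 28 members had a peak in some lists. A peak in Osa-deGrad 2 alone was seen at mRpL49 and mRpS28, and at 313 of all 13959 protein-coding genes. Peaks in 3 lists without Osa-deGrad 1 were found at 8 members, namely mRpL12, whose mammalian counterpart also binds the mitochondrial RNA polymerase, mRpL41, mRpL50, mRpS9, mRpS10, mRpS17, mRpS24 and mRpS26. Peaks in 3 lists without control 1 were found at 7 members, namely mRpL24, mRpL35, mRpL36, mRpL37, mRpL45, mRpL51 and mRpS11. The missing list was thus a first replicate, of either genotype, in 15 of the 16 members with 3 lists, and only mRpL23 lacked a peak in control 2. Of the 1936 protein-coding genes with a peak in 3 lists, 1209 lacked control 1 and 557 lacked Osa-deGrad 1. A missing first replicate was thus the common case over all genes too, while the members split more evenly between the 2 first replicates.

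Peaks in both second replicates and neither first replicate were seen at 6 members: mRpL10, mRpL17, mRpS2, mRpS18C, mRpS31 and mRpS29, the last a GTP-binding protein known in mammals as DAP3. A peak in Osa-deGrad 2 and control 1 was seen at mRpS18B. Over all 13959 protein-coding genes these 2 patterns were found at 621 and 84 genes. Osa-deGrad 2 held a peak at every member that any other list held, so no member was present elsewhere and absent there. Over all genes, 255 of 6607 with a peak in Osa-deGrad 1 had none in Osa-deGrad 2. The same held for 230 of 5853 in control 1 and 396 of 7641 in control 2, so such genes were few in general too. Osa-deGrad 2 also had the largest share of all protein-coding genes with a peak (56.8%, against 54.7% in control 2), although control 2 had more peaks. The cause was not tested.

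Genes for a few mitochondrial ribosomal proteins have other symbols and were not members. At tko, the S12 protein of the decoding centre, known from the bang-sensitive fly mutant technical knockout, a peak was present in all 4 lists, at percentiles of 78.7 and 80.7 in Osa-deGrad against 82.9 and 58.1 in control. A percentile here is the rank of the authors' −log10 q value within its own list, with 100 for the strongest peak. At CG4866, listed with the synonym mRpS4, the percentiles were 61.8 and 59.2 in Osa-deGrad against 49.6 and 44.5 in control. At bonsai, the S15 protein, they were 56.7 and 55.2 in Osa-deGrad, with no peak in control 1 and 71.1 in control 2. All 3 genes would thus have fallen into the classes that hold most members.

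**Figure D2:**
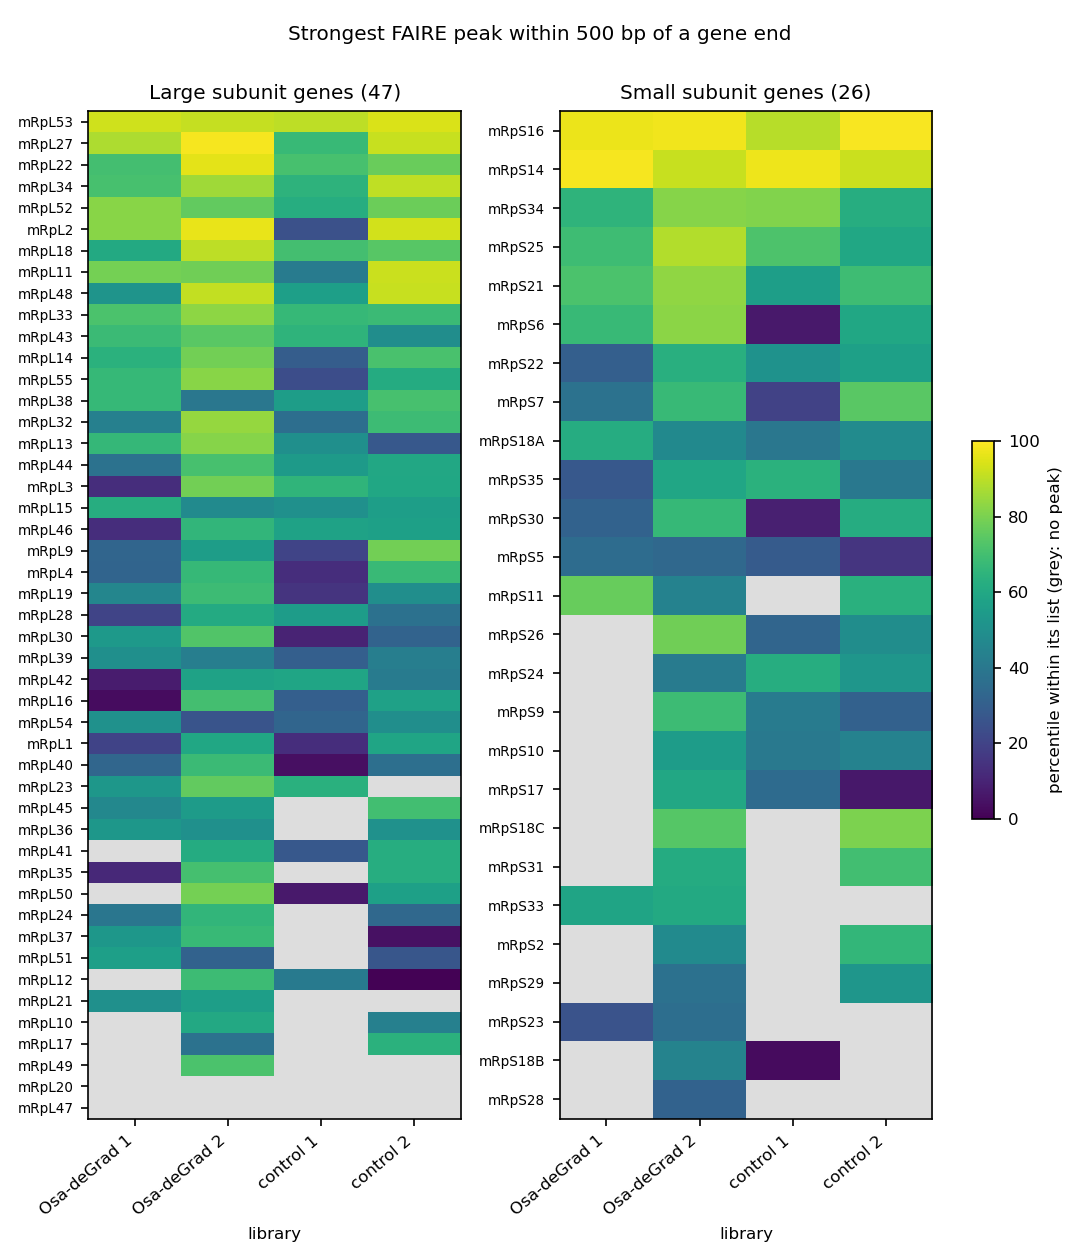
Percentile of the strongest peak near each mitochondrial ribosomal protein gene (rows, large subunit left and small subunit right) in each library (columns), with grey for no peak. Genes are ordered by the number of lists and then by mean percentile, and grey cells are most frequent in the first replicates, where 54 and 53 of 73 genes had a peak against 71 and 64 in the second.

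Osa-deGrad wings had a peak that both control lists lacked at 3 members (4.11%), against 1.15% of all protein-coding genes (161 of 13959). Control wings had no member with a peak in both lists and in neither Osa-deGrad list (0 of 73), against 0.473% of all genes (66). The direction of the members' counts is that of all genes, and a count of 3 leaves little to compare. A peak absent from a list can lie just under the caller's threshold.

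The clearest of the 3 is mRpS33, a small-subunit protein gene without a bacterial relative (3R, 16436045 to 16436597, dm6). Its Osa-deGrad peaks covered 16436504 to 16436664 in replicate 1 and 16436526 to 16436698 in replicate 2, with summits 7 and 2 bp from the high-coordinate end of the gene. They ranked at percentiles 58.4 and 60.6, with widths of 161 and 173 bp, and the authors' fold enrichment at the summit was 5.79 and 5.47. These are middle-ranked peaks of ordinary width. In control wings the nearest summits lay 3059 and 4079 bp away.

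At mRpL21, a large-subunit protein gene with a bacterial relative (3L, 19253290 to 19255061), Osa-deGrad peaks ranked at percentiles 50.04 and 55.9 and were 193 and 391 bp wide. They overlapped each other, but the summit was 2 bp from the end of mRpL21 in replicate 1 and 276 bp from it in replicate 2. The replicate 2 summit was 3 bp from the end of rept, which encodes the AAA+ ATPase Reptin. The wider peak thus spanned the space between 2 gene ends. The nearest control summits lay 5612 and 5623 bp from mRpL21.

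The case of mRpS23 (2L, 13834250 to 13835072) rests on the edge of the window. Its Osa-deGrad peaks ranked low, at percentiles 25.8 and 36.3, with summits 235 and exactly 500 bp from the gene, the latter 8 bp from the end of CenG1A. Both control lists had a summit just outside, at 521 and 522 bp. When any overlap of a peak with the window was counted, all 4 lists held mRpS23, and its order turned: it ranked at 25.8 and 36.3 in Osa-deGrad and at 59.6 and 49.7 in control. Other summits near the limit were those of mRpL28 (482 bp in Osa-deGrad 1), mRpL49 (486 bp in Osa-deGrad 2) and mRpS31 (488 bp in control 2) inside it, and those of mRpL49 in the other lists (523 to 534 bp) and mRpS31 in control 1 (528 bp) outside it.

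The set of 3 changed with the settings. A 250 bp window gave mRpL11 and mRpS33, and a 1000 bp window or any overlap gave mRpL21 and mRpS33. With lists cut to the 13953 strongest peaks each, mRpL37 joined the 3. A −log10 q minimum of 5 gave mRpL21, mRpL37, mRpS5 and mRpS33, and a minimum of 10 gave mRpL43 alone. Over all protein-coding genes, the share in this class was 1.58% with the 250 bp window, 0.867% with 1000 bp and 0.981% with any overlap. It was 1.98% with the cut lists, and 1.34% and 1.35% at the minimums of 5 and 10. Under the minimum of 10, with few members left in the first replicates (17 in Osa-deGrad 1 and 7 in control 1), mRpS33 was not in the set.

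Peaks at the members ranked lower than those of other genes that were open in every library. Over the 43 members with a peak in all 4 lists, the median percentile was 60.8 in Osa-deGrad 1, 74.4 in Osa-deGrad 2, 51.1 in control 1 and 61.7 in control 2. Over all 4858 genes with a peak in all 4 lists the medians were 66.3, 77.4, 61.7 and 72.5. The members' median was the lower one in each library. The median width of the members' peaks was 187, 238, 172 and 224 bp, against 231, 283, 212 and 265 bp for all such genes.

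Between genotypes, the mean of the members' median percentiles was 67.6 ± 9.62 in Osa-deGrad and 56.4 ± 7.46 in control (SD, n = 2 each), a difference of 11.2 (exact permutation test, two-sided, p = 0.667). The same difference over all genes was 4.77. The libraries overlapped, since control 2 ranked above Osa-deGrad 1. On the same 43 members, leaving out Osa-deGrad 2 brought the difference to 4.39 and leaving out control 1 to 5.91, while leaving out Osa-deGrad 1 or control 2 brought it to 18.0 or 16.5. With members taken anew from the 3 lists left, it was 1.09 without control 1. Percentiles come from lists of unequal length, and with lists cut to equal length the difference was 13.7 (exact permutation test, p = 0.333, the smallest this design allows).

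Peak width did not separate the genotypes either. The median was 212.5 ± 36.1 bp in Osa-deGrad and 198 ± 36.8 bp in control (SD, n = 2 each), a difference of 14.5 bp (exact permutation test, two-sided, p = 0.667). The replicates of a genotype differed by more than the genotypes did. On the same 43 members the sign turned without Osa-deGrad 2, to −11 bp, and without control 1, to −11.5 bp.

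**Figure D3:**
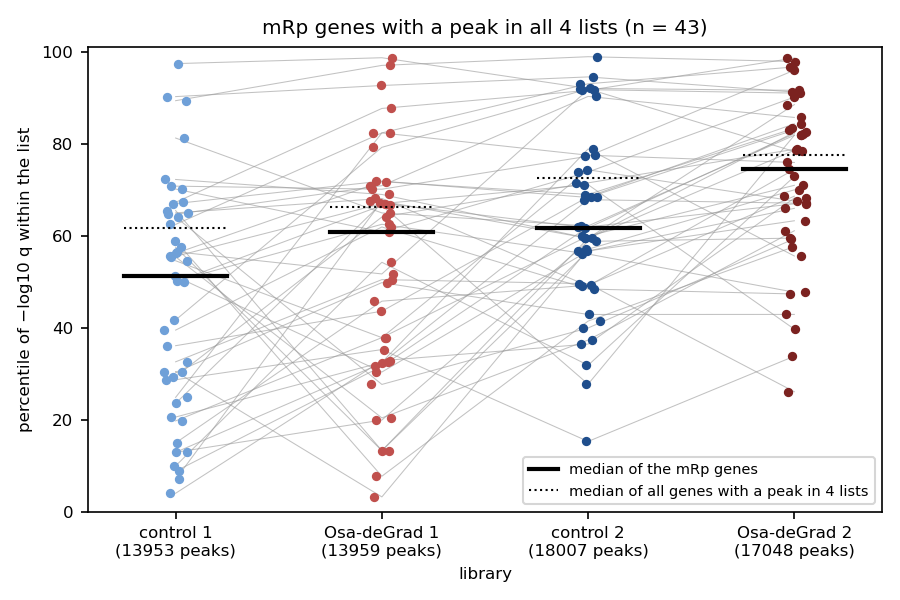
Percentile of −log10 q within each list (y axis) for the 43 mitochondrial ribosomal protein genes with a peak in all 4 lists, by library (x axis, with the length of each list); each point is 1 gene, lines join the same gene, solid bars are medians and dotted bars the medians of all 4858 genes with a peak in all 4 lists. The solid bar lies below the dotted bar in each library, lowest in control 1 (51.1) and highest in Osa-deGrad 2 (74.4).

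Gene by gene, 30 of the 43 members (69.8%) had a higher mean percentile in Osa-deGrad than in control, against 62.4% of all genes with a peak in all 4 lists. The share depended on which libraries were paired. Osa-deGrad 1 exceeded control 1 at 30 members (69.8%; 58.03% of all such genes) and Osa-deGrad 2 exceeded control 2 at 29 (67.4%; 59.3%). Across replicate numbers, Osa-deGrad 1 exceeded control 2 at 16 members (37.2%; 39.1% of all such genes) and Osa-deGrad 2 exceeded control 1 at 37 (86.05%; 73.8%). The order of the 4 pairings by share was nearly that over all genes, with the highest and the lowest pairing the same. Control 1 was the lowest of the 4 libraries at 23 members (53.5%; 44.3% of all such genes) and Osa-deGrad 2 the highest at 25 (58.1%; 42.5%).

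Both Osa-deGrad libraries ranked above both control libraries at 9 of the 43 members (20.9%), against 19.7% of all genes with a peak in all 4 lists, a share near the background. The reverse order was found at 0 of 43 members, against 9.8% of all genes. No test per gene was run, so these are counts and not results about single genes. Leaving out Osa-deGrad 1, Osa-deGrad 2, control 1 or control 2 gave 33 of 51, 14 of 43, 14 of 50 and 26 of 44 members higher. In the same order, 5, 11, 10 and 2 members ranked lower. No share over all genes is given for these runs, so they are not set against a background. The rule then asks for fewer comparisons, so these counts can only hold or rise. Such a rise does not measure dependence on the libraries.

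The 4 members with the largest gaps among the 9 were mRpL30, mRpS6, mRpL13 and mRpL55. At mRpL30, for a large-subunit protein with a bacterial relative (X, 4647871 to 4648646), the peaks ranked at percentiles 54.2 and 72.9 in Osa-deGrad against 9.95 and 31.8 in control, a difference of 42.6. All 4 peaks overlapped at the low-coordinate end, with summits 13 to 72 bp from it.

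At mRpL55, for a protein without a bacterial relative (3R, 19094394 to 19094905), the percentiles were 67.1 and 82.2 in Osa-deGrad against 23.5 and 61.7 in control, a difference of 32.0. Here too the 4 peaks overlapped, and they lay between mRpL55 and ATPsynD, which encodes a subunit of the mitochondrial ATP synthase. The summits were 32 to 53 bp from mRpL55 and 42 to 63 bp from ATPsynD, so the same open site lay beside both genes in each library.

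The gaps at mRpS6 and mRpL13 compare different sites. The peaks near mRpS6, a small-subunit protein with a bacterial relative, ranked at percentiles 67.5 and 82.5 in Osa-deGrad against 7.02 and 59.4 in control. In Osa-deGrad 1 and control 2 the strongest peak was that beside Cip4, 432 and 406 bp from mRpS6, and in the other lists it was the one 1 and 78 bp from mRpS6 itself. The peaks of mRpL13, a large-subunit protein with a bacterial relative, ranked at 66.6 and 81.8 in Osa-deGrad against 49.9 and 27.7 in control. The control 2 peak was at the opposite end from the others, 126 bp from tup, which encodes a LIM homeodomain factor. The 4 peaks were 1 overlapping region at 32 of the 43 members (74.4%; 66.4% of all genes), and at 6 of the 9.

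The remaining 5 had smaller gaps. At mRpS21, for a small-subunit protein with a bacterial relative, the percentiles were 71.7 and 83.3 in Osa-deGrad against 56.1 and 68.9 in control, at a site 17 to 34 bp from Droj2, a gene for a DnaJ-type chaperone. At mRpL43 they were 68.1 and 74.4 in Osa-deGrad against 64.95 and 49.1 in control. For mRpS5, mRpL33 and mRpL39 the difference was 12.5, 9.78 and 9.75. The gap at mRpL33 also compares different sites. Its control 2 summit lay 36 bp from the gene and those of the other lists 311 to 437 bp from it. In mRpL39 the closest pair of libraries from the 2 genotypes, Osa-deGrad 2 and control 2, stood at 42.88 and 42.86.

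**Figure D4:**
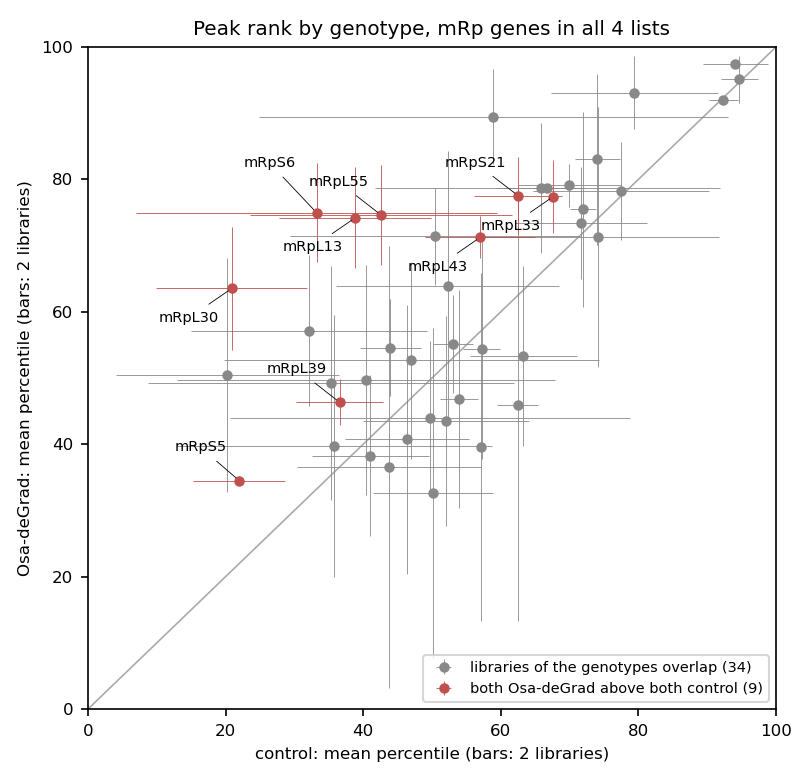
Mean percentile in control (x axis) against mean percentile in Osa-deGrad (y axis) for the 43 mitochondrial ribosomal protein genes with a peak in all 4 lists; bars reach to the 2 libraries of each genotype and the line marks equal ranks. The 9 genes in red have both Osa-deGrad values above both control values, led by mRpL30, mRpS6, mRpL13 and mRpL55.

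The strongest sites of the class ranked high in both genotypes. The 8 members with the highest mean percentile were mRpS16, mRpS14, mRpL53, mRpL27, mRpL22, mRpL34, mRpL52 and mRpL2. At mRpS16, for a small-subunit protein with a bacterial relative (2R), the percentiles were 97.0 and 97.8 in Osa-deGrad against 89.3 and 98.9 in control. The site lies between mRpS16 and cg, which encodes the zinc finger factor Combgap, with summits 30 to 75 bp from mRpS16 and 22 to 67 bp from cg. Its peaks were the widest of the 43 by the mean over the 4 lists (521.5 bp), at 361, 881, 505 and 339 bp in Osa-deGrad 1, Osa-deGrad 2, control 1 and control 2.

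At mRpS14, for another small-subunit protein with a bacterial relative (X, 19479382 to 19480238), the percentiles were 98.7 and 91.6 in Osa-deGrad against 97.4 and 92.0 in control. At mRpL53, which has no bacterial relative and shares its ends with CG33155, they were 92.6 and 91.2 in Osa-deGrad against 90.2 and 94.5 in control. The genotypes overlapped at each of these 3 genes, although the control 1 peak of mRpL53 lay at the opposite end from the others. The next widest peaks were those of mRpL53 (mean 419.75 bp) and mRpL34 (mean 346 bp), the latter 7 to 47 bp from Dg, the gene for Dystroglycan.

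Other strong sites varied within a genotype. At mRpL2, for a protein of the peptidyl transferase core in bacteria, the percentiles were 82.3 and 96.7 in Osa-deGrad against 24.8 and 93.0 in control, with all 4 summits within 11 bp of the same gene end. The low value belonged to control 1. At mRpL27, beside RpL27A of the cytoplasmic ribosome, they were 87.6 and 98.6 in Osa-deGrad against 67.2 and 91.6 in control, but the control 1 peak was a different site, 541 bp from RpL27A. At mRpL34 they were 70.9 and 85.7 in Osa-deGrad against 64.6 and 90.3 in control, at mRpL22 70.1 and 95.96 against 70.8 and 77.3, and at mRpL52 82.3 and 75.9 against 62.4 and 77.5. The control 1 peak of mRpL22 was also a different site, 468 bp from the gene and 31 bp from if.

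The 8 members with the lowest mean percentile among the 43 were mRpS5, mRpL40, mRpL1, mRpL54, mRpL16, mRpL42, mRpL39 and mRpL30. The lowest was mRpS5, for a small-subunit protein with a bacterial relative, at 35.2 and 33.8 in Osa-deGrad against 28.7 and 15.3 in control. At mRpL1, which forms the mobile L1 stalk in bacteria, the values were 19.9 and 59.5 in Osa-deGrad against 12.9 and 58.8 in control. Here the replicates differed and the genotypes did not, with both second replicates high. At mRpL40 the values were 32.8 and 68.2 in Osa-deGrad against 4.003 and 36.4 in control.

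Single libraries fell far below the rest at the weak sites of mRpL16 and mRpL42, while mRpL54 and mRpL39 varied less. At mRpL16 the percentiles were 3.21 and 69.95 in Osa-deGrad against 30.4 and 57.1 in control, and in Osa-deGrad 1 the peak lay 319 bp from the gene and 13 bp from trr. At mRpL42 they were 7.71 and 57.6 in Osa-deGrad against 58.9 and 41.4 in control, and at mRpL54 50.4 and 26.1 against 32.6 and 49.6. The 4 peaks of mRpL42 did not all overlap. At mRpL39 they were 49.8 and 42.9 against 30.3 and 42.9. The genotypes overlapped at the first 3 of these. The narrowest peaks were those of mRpS5, mRpL39 and mRpS22, with means of 150.75, 152.5 and 158 bp.

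Proteins with bacterial numbering (L1 to L36 with L47, and S1 to S21 with S24; 44 genes) and those with other numbers, most of them mitochondrial additions (29 genes), had a peak in all 4 lists at similar shares. A peak in all 4 lists was present at 26 of 44 and 17 of 29. The mean percentile was higher in Osa-deGrad at 22 of the 26 and at 8 of the 17, with median differences of 9.55 and −0.43. Over all genes with a peak in all 4 lists, the share was 62.4% and the median difference 3.82. Osa-deGrad 1 exceeded control 1 at 21 and 9 genes of the 2 groups, and control 2 at 9 and 7. Osa-deGrad 2 exceeded control 1 at 24 and 13, and control 2 at 17 and 12. The 4 peaks were 1 overlapping region at 18 of the 26 and 14 of the 17. The split follows the numbers in the symbols and was not tested. Of the 3 members with a peak in Osa-deGrad lists alone, mRpS33 and mRpS23 have other numbers and mRpL21 a bacterial one.

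Sites in this class were close to gene ends, in a crowded part of the genome. The summit lay within 50 bp of a member's end at 26 of 54 members with a peak in Osa-deGrad 1 (48.1%), 40 of 71 in Osa-deGrad 2 (56.3%), 23 of 53 in control 1 (43.4%) and 33 of 64 in control 2 (51.6%). Over all genes with a peak the shares were 34.0%, 38.1%, 31.7% and 37.3%. These shares count only the strongest peak of each gene in a list. Among the 43 members with a peak in all 4 lists, that peak's summit lay within 50 bp in every list at 9 (20.9%). The share was 11.6% over all such genes. Weaker peaks nearer to a gene end, as at mRpL22 in control 1, were not counted. The genes are short, with a median length of 909 bp against 2160 bp over all genes, so both ends can fall within 1 window.

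**Figure D5:**
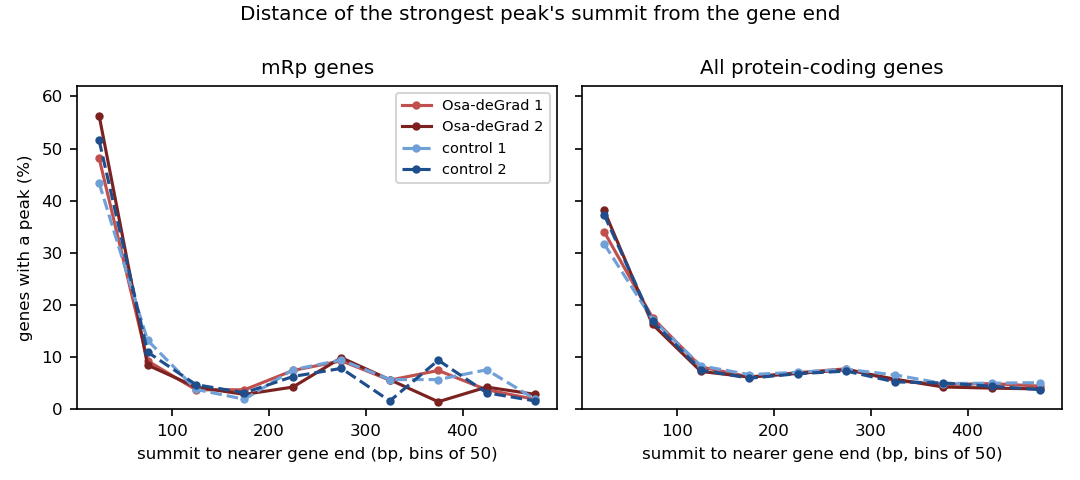
Distance from the summit of the strongest peak to the nearer gene end (x axis, bins of 50 bp, points at bin centres) as a share of the genes with a peak (y axis, percent), for mitochondrial ribosomal protein genes (left) and all protein-coding genes (right); each line is 1 library. The first bin holds 43.4% to 56.3% of the members and 31.7% to 38.1% of all genes.

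Another protein-coding gene had an end within 500 bp of 72 of the 73 members (98.6%), against 70.9% of all genes. The exception was mRpS5 on 3L, whose nearest neighbour, nvd, is 135581 bp away. A peak near a member is therefore often as near to a second gene. The strongest peak's summit was nearer to the other gene's end at 37.04%, 39.4%, 37.7% and 35.9% of the members with a peak. The order is Osa-deGrad 1, Osa-deGrad 2, control 1 and control 2, and the shares over all genes were 29.8%, 30.5%, 29.1% and 29.8%.

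Members fell into 3 groups by this measure, which takes only the strongest peak in each list. At 31 members, such as mRpL2, mRpL30, mRpS14 and mRpS33, no other gene's end was nearer to the summit in any list that held a peak. Ties count here, as at mRpL53, whose summits were equally near to CG33155 in each list. The summit was nearer to another gene in every list that held a peak at 14 members. Among these was mRpL44 beside Snr1, which itself encodes a subunit of the Brahma remodeler. A weaker peak had its summit 0 bp from mRpL44 itself in Osa-deGrad 2 and 18 bp from it in control 1. Some others of this group, such as mRpL11 and mRpS22, likewise had a weaker peak nearer to their own end in some lists. The remaining 26 were mixed. The strongest peaks of mRpL44 ranked at percentiles 37.8 and 70.9 in Osa-deGrad against 54.5 and 59.9 in control. Their summits lay 11 to 18 bp from Snr1, and the genotypes overlapped.

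In the first group, 16 genes had a peak in all 4 lists, and 3 ranked higher in both Osa-deGrad lists. The 16 genes had median percentiles of 52.0 and 68.4 in Osa-deGrad against 26.8 and 62.002 in control. In the group nearer to another gene, 10 had a peak in all 4 lists, with medians of 52.2 and 78.4 in Osa-deGrad against 55.3 and 68.7 in control, and 2 ranked higher. In the mixed group the corresponding numbers were 17 genes, medians of 62.5 and 75.9 against 56.5 and 57.1, and 4 that ranked higher. Control 1 had its lowest median in the first group. The genotypes overlapped in the first 2 groups, and in the mixed group both Osa-deGrad medians were above both control medians, with no test. The mixed group partly compares different sites. At its members mRpL13, mRpL22, mRpL27, mRpL28, mRpL33, mRpL42, mRpS6, mRpS18A and mRpS35 the 4 peaks were not 1 overlapping region. In the first group the same held for mRpL19 and mRpL53.

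Among the other gene groups, the share of genes ranked higher in both Osa-deGrad lists ranged from near the background of 19.7% to above it. It was 18 of 66 cytoplasmic ribosomal protein genes with a peak in all 4 lists (27.3%), 6 of 30 oxidative phosphorylation genes (20%), 3 of 8 synthetase genes (37.5%), 6 of 17 translation and mitochondrial DNA factors (35.3%) and 2 of 6 import genes (33.3%). The last 3 groups rest on few genes, and none of the shares was tested. The reverse order was seen at 4, 1, 0, 0 and 2 genes. The absence of lower-ranked members in Osa-deGrad was thus shared by the synthetase and factor groups, which hold fewer genes.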

How the data were processed

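FAIRE-seq peak lists of 4 libraries (2 Osa-deGrad, 2 control) were analysed. The authors deposited 1 list per library on dm6, so peaks were called per library. Per the submitters' processing notes the tools included MACS2 2.1.2, Bowtie2 2.3.4.1, Picard 2.2.4 and SAMtools 1.9, besides deepTools 2.4.1, with roles and settings not given in the sources used here. For each peak the authors deposited an integer score, a fold enrichment (ratio) and −log10 values of p and q. The fold and −log10 q values were used only within their own list, and the deposited score was not used. Depth is unknown, and −log10 q and list length rise with it, so no counting interval is given.

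Genes came from the RefSeq table of Release 6 plus ISO1 MT, which has no strand. The planned promoter sequences and motif search were not run, because no genome sequence was used here. A gene took its peak with the highest −log10 q among those with a summit within 500 bp of either end, and that value became a percentile within its list. Coordinates are 1-based. Exact permutation tests over the 4 libraries were two-sided. Gene-to-peak assignment was tested on simulated data. Python 3.11.15, numpy 2.4.6, pandas 2.3.3 and matplotlib 3.10.9 were used.

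The members and lists were chosen with earlier results of these data known. Genes were named when in a genotype-specific class, among the 8 highest or 8 lowest mean percentiles, without any peak, among the 6 largest differences without overlap, or among the 3 widest or narrowest peaks. The presence pattern over lists is given for all members, and mRpL44 was named after its values were seen, as were genes at the window's edge. Of 34 written symbols of translation and mitochondrial DNA factors, 24 matched, to 23 genes.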

Additional observations from a re-analysis of the deposited data

How the results depend on the processing

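The 7 results were recomputed under other windows, −log10 q minimums, list lengths, rank measures and left-out libraries. Of the recomputed values, 71 kept the sign of a difference or lay within 1.5 times of a count, 18 counts moved by more and 6 differences turned sign. Keeping the sign does not mean keeping the size. The difference in members with a peak (4) ran from −4.5 to 12.5 when 1 library was left out, with −4.5 without Osa-deGrad 2 and −1.5 without control 1. Members with a peak in Osa-deGrad alone (3) numbered 1 at a −log10 q minimum of 10, and 3 to 10 with a library left out. Members with a peak in control alone (0) numbered 0 to 8, with 8 without Osa-deGrad 2. The difference in median percentile (11.2) ran from 1.09 to 20.4 with a library left out and kept its sign in every alternative run. Members ranked higher in both Osa-deGrad lists (9) numbered 4 of 27 with a 250 bp window, and 14 to 33 with a library left out. They numbered 2 of 21 and 0 of 5 at −log10 q minimums of 5 and 10. Over all genes with a peak in all 4 lists, the shares ranked higher were 20.0% with that window and 16.9% and 14.8% at those minimums. Members ranked lower (0) numbered 1 of 52 with a 1000 bp window, 2 of 47 with any overlap and 1 of 43 with the peak nearest to the gene. The shares over all such genes were 10.3%, 9.83% and 10.5% in that order. With a library left out, 2 to 11 members ranked lower. The difference in median width (14.5 bp) was −12.5 bp at a −log10 q minimum of 10, where 5 members had a peak in all 4 lists, and −11.5 to 45.5 bp with a library left out (−11 without Osa-deGrad 2), whether members were taken anew or, chosen after seeing the data, held at the 43. Counts of members in 1 genotype alone, or ranked higher or lower, can only hold or rise when a library is left out, since the rule then asks for less. No share over all genes is given beside these left-out counts, so they cannot be set against a background. The cause of the other shifts was not tested. Fits with the replicate block gave 4 members (exact p = 0.5), 11.2 percentiles (exact p = 0.5) and 14.5 bp (exact p = 0.5), where 0.5 is the smallest p that 2 blocks allow; same-numbered libraries share only a number, which the labels do not call a batch. Restricting to members whose 4 peaks overlap, chosen after seeing the data, gave 9.35 percentiles, 15.75 bp, 6 higher and 0 lower. Unknown depth limits any statement on absent peaks.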
